A study of Mus musculus with 12 samples.

Results

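Fractalkine (Cx3cl1), its receptor Cx3cr1 and the proteases Adam10 and Adam17 that release fractalkine from the cell surface were followed in the mouse lateral septum, a forebrain nucleus. These 4 genes were picked by symbol from 54532 genes in the deposited table, and all 4 were among the 13345 genes that passed the expression filter (at least 1 FPKM in at least 6 libraries). Bulk RNA sequencing covered 12 libraries, 6 labelled CFA and 6 labelled saline, all wild type and all from day 3 after injection. The labels do not spell out CFA; the series is about inflammatory pain, where the letters stand for complete Freund's adjuvant, an agent that inflames the injected tissue. The series asked which genes differ between CFA and saline injection. Strain, sex, age and injection site are not in the labels. Nor do they tie each library to its own mouse, and the spread behind every p-value may therefore be partly technical.

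Fractalkine is an unusual chemokine. It is made as a membrane protein, mainly by neurons in the brain, with the chemokine domain carried on a mucin-like stalk above the cell surface. Cutting of the stalk frees a soluble form, by ADAM10 in resting cells and by ADAM17 (TACE, the tumour necrosis factor converting enzyme) after stimulation. CX3CR1, a receptor coupled to Gi proteins, is carried in brain tissue by microglia and other resident macrophages, and signalling through it is known to restrain microglial activation and to take part in pain signalling in the spinal cord.

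The 4 genes were chosen with the CFA and saline values of these libraries in view, so their differences are given as a description and without a test. The receptor stood apart from the other members. Whether every library carries an intact Cx3cr1 gene, as the label wild type implies, was not tested. Cx3cr1 averaged 3.18 ± 2.13 FPKM in CFA libraries and 9.10 ± 0.737 FPKM in saline libraries (SD, n = 6 each), while the ligand and both proteases had CFA means within 4% of their saline means (96.8%, 103% and 96.4% for Cx3cl1, Adam10 and Adam17). CFA and saline libraries were fully separated for 1 gene of the 4, Cx3cr1, where CFA was lower; this held for 0.495% of all tested genes in either direction and for 0.292% with CFA lower. By limma with Benjamini-Hochberg adjustment over all tested genes 0 of the 4 passed the threshold of 0.05, which 0.03% of all tested genes did (0.015% higher and 0.015% lower in CFA). At an unadjusted p under 0.05 it was 1 of 4, Cx3cr1, against 7.67% of all tested genes (3.11% higher and 4.56% lower in CFA). Voom on recovered reads called 1 of the 4, Cx3cr1, lower in CFA, where it called 0.03% of all tested genes in either direction and 0.015% lower. Since these counts come from the contrast that served to choose the genes, they add nothing to the values themselves. In whole tissue fewer cells of a type and less RNA per cell cannot be told apart.

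The region around the RefSeq start of the receptor and ligand genes is shown because both form the ligand and receptor pair and their windows differ in base composition. The windows run from 250 bases before to 50 bases after the start in GRCm38.p6, 5′ to 3′ on the strand of the gene, at chr9:120068247-120068546 (minus strand) for Cx3cr1 and chr8:94771930-94772229 (plus strand) for Cx3cl1. Capitals mark 3 motifs found on either strand, the TATA box core TATAAA, the GC box GGGCGG and the ETS core GGAA (TTCC on the other strand), none of which overlaps another in these windows.
Cx3cr1: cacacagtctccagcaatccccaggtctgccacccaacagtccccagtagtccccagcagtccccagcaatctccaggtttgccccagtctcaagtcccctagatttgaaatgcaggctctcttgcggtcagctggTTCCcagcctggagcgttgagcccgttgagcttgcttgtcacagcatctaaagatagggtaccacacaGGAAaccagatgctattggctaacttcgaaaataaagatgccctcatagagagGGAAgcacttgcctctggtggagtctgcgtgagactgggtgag
Cx3cl1: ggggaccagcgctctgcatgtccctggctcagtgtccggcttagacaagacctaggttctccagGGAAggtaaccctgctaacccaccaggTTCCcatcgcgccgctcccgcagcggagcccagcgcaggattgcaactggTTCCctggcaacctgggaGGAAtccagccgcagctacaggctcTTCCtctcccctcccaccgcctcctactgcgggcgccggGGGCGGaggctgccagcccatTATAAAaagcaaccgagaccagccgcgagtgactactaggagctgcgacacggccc
The Cx3cl1 window held 1 TATAAA, 1 GGGCGG and 5 GGAA, and the Cx3cr1 window held only GGAA, at 3 places. Of 32851 promoter windows of this length in the RefSeq table, 13.6% held TATAAA, 35.7% held GGGCGG and 96.0% held GGAA. CpG dinucleotides numbered 5 in Cx3cr1, 19 in Cx3cl1, 32 in Adam10 and 30 in Adam17, where the median window held 7. A match is a description of these letters and says nothing of binding.

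The ligand was by far the most abundant of the 4 per length of transcript. Cx3cl1 (ENSMUSG00000031778, chromosome 8, 94772009 to 94782427, plus strand, GRCm38) had 149, 134, 153, 139, 132 and 161 FPKM in CFA 1 to CFA 6, against 161, 157, 144, 140, 151 and 144 FPKM in saline 1 to saline 6. CFA 2, CFA 4 and CFA 5 lay below every saline library and CFA 6 lay above all of them, so the groups overlapped. On the log2(FPKM + 1) scale CFA differed from saline by -0.05 (SE 0.06, 95% interval -0.17 to 0.07). Each value rested on 18560 to 23574 recovered reads. Marker genes of neurons, the main source of fractalkine, summed to 1229 to 1323 FPKM in CFA libraries and 1254 to 1458 FPKM in saline libraries, with all 10 log2 differences negative (9 with median ratio scaling or voom, 6 as TPM) and 0 past the limma threshold (3 at an unadjusted p under 0.05, 0 by voom).

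The receptor gene fell into clearly different levels among CFA libraries. Cx3cr1 (ENSMUSG00000052336, chromosome 9, 119901616 to 120069879, minus strand) had 5.48, 1.68, 1.70, 2.14, 6.32 and 1.76 FPKM in CFA 1 to CFA 6, against 9.99, 9.86, 8.20, 8.78, 8.48 and 9.31 FPKM in saline 1 to saline 6. All 6 CFA libraries lay below all 6 saline libraries. CFA 1 and CFA 5 stood at 60.6% and 69.9% of the saline median, and CFA 2, CFA 3, CFA 4 and CFA 6 at 18.6%, 18.8%, 23.6% and 19.5%. No library was at 0: the CFA libraries held 281 to 1119 recovered reads of the gene and the saline libraries 1327 to 1694. Relative spread (SD over mean) was 67.0% in CFA and 8.09% in saline, while for Cx3cl1, Adam10 and Adam17 it was 5.19% to 9.64% in either group. The log2 difference was -1.41 (SE 0.24, 95% interval -1.93 to -0.89), and 8 of the 13345 tested genes had a larger one in size, of either sign.

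**Figure D1:**
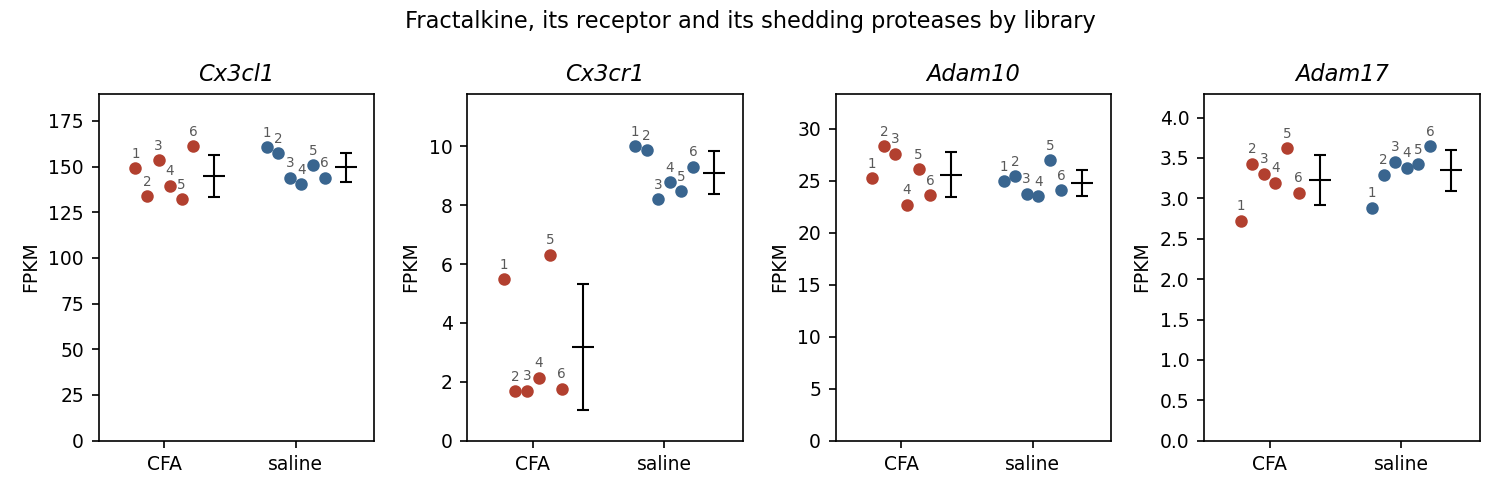
FPKM of the ligand, the receptor and both proteases in each library, with the CFA group left of the saline group; each dot is 1 library with its replicate number above it, and bars are mean ± SD (n = 6), each axis starting at 0. Cx3cr1 lies between 1.68 and 6.32 FPKM in CFA and between 8.20 and 9.99 FPKM in saline, whereas the groups overlap for the other genes.

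The annotation bears on how these reads are read. In GENCODE M21 Cx3cr1 has 3 transcripts that share 1 coding segment (chromosome 9, 120051273 to 120052334, 1062 bases). The coding sequence makes up 23.6% of the 4505 bases over which reads were counted, and most of the rest is the 3′ untranslated region in the same exon. A gene-level FPKM does not say from which part of the gene the reads came. For Cx3cl1 the coding share of the counted length was 33.4%, for Adam10 45.7% and for Adam17 37.4%.

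Microglial markers differed far less than the receptor, and not all in one direction. The summed level of 20 such genes, Cx3cr1 not among them, was 210, 182, 169, 190, 221 and 184 FPKM in CFA 1 to CFA 6, and 168 to 191 FPKM with a median of 178 FPKM in saline libraries. CFA 1 and CFA 5, the CFA libraries with the most Cx3cr1, also had the most of these markers, at 117% and 124% of the saline median. The higher sum in CFA came from the complement genes C1qa, C1qb and C1qc, which together averaged 85.2 ± 8.18 FPKM in CFA libraries and 66.8 ± 3.37 FPKM in saline libraries (SD, n = 6 each). The other 17 markers, a split made after the values were seen, summed to 108 ± 12.8 FPKM in CFA libraries and 112 ± 5.38 FPKM in saline libraries. That sum was 110% and 112% of the saline median in CFA 1 and CFA 5, above every saline library, and 87.5% to 91.8% in CFA 2, CFA 3, CFA 4 and CFA 6, below every saline library. Per 100 FPKM of microglial markers, Cx3cr1 had 0.921 to 2.86 FPKM in CFA libraries and 4.66 to 5.38 FPKM in saline libraries, again without overlap. Per 100 FPKM of the 17 markers without the C1q genes it had 1.68 to 5.05 FPKM in CFA libraries and 7.37 to 8.73 FPKM in saline libraries. With the mean of the microglial list as a covariate the log2 difference of Cx3cr1 was -1.60 (SE 0.10), against -1.41 (SE 0.24) without it. That mean was highest in CFA 1 and CFA 5 (2.99 and 3.04 on the log2(FPKM + 1) scale). The covariate therefore also took up the split of Cx3cr1 among CFA libraries. Neither value can be read as corrected for microglial content alone.

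Of the 19 microglial markers tested, 10 were higher and 9 lower in CFA, with a median log2 difference of 0.08, where the median over all tested genes was -0.00427. By limma 0 passed over all tested genes, and 0 by voom. At an unadjusted p under 0.05 there were 5 higher and 3 lower, or 42.1% of the 19 against 7.67% of all tested genes. The largest positive values were those of C1qc (0.36, limma adjusted p = 0.143), C1qb (0.33, 0.165) and C1qa (0.32, 0.140), and the largest negative ones those of the growth factor receptor gene Csf1r (-0.36, 0.308) and the purinergic receptor gene P2ry12 (-0.23, 0.583). C1qa and Ly86 were higher in all CFA libraries than in any saline library, and the transcription factor gene Sall1 was lower in all of them. Of all tested genes 0.202% were fully separated with CFA higher and 0.292% with CFA lower. Without the C1q genes 7 were positive and 9 negative, with a median of -0.04 (8 and 8 as TPM or by voom). Markers of the other immune cells listed were near the floor. Markers of border macrophages summed to 2.28 to 3.68 FPKM in CFA libraries and 2.43 to 3.91 FPKM in saline libraries, and those of monocytes and neutrophils to 0.493 to 1.05 FPKM in CFA libraries and 0.101 to 1.42 FPKM in saline libraries, with 0 of 8 and 0 of 8 past the filter.

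A second transcript set the same CFA libraries apart. Gt(ROSA)26Sor, the noncoding transcript of the Rosa26 locus, was named from earlier results of these data. It had 3.49, 0.143, 0.126, 0.134, 1.98 and 0.428 FPKM in CFA 1 to CFA 6, against 49.0, 4.08, 4.99, 3.42, 4.84 and 3.37 FPKM in saline 1 to saline 6. The 4 CFA libraries with the least Cx3cr1 were also the 4 with the least Gt(ROSA)26Sor, and CFA 1, with 3.49 FPKM, was the CFA library that fell within the saline range. Saline 1 stood far above the rest. All libraries are labelled wild type, and the labels give no other allele. Both loci are in common use as sites of inserted alleles in mice, for Cx3cr1 to mark or recombine genes in microglia. Whether the genotypes of these libraries match their label was not tested, so a difference in genotype and one in treatment cannot be told apart for Cx3cr1 here. The same holds for every other difference between CFA and saline libraries given here.

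**Figure D2:**
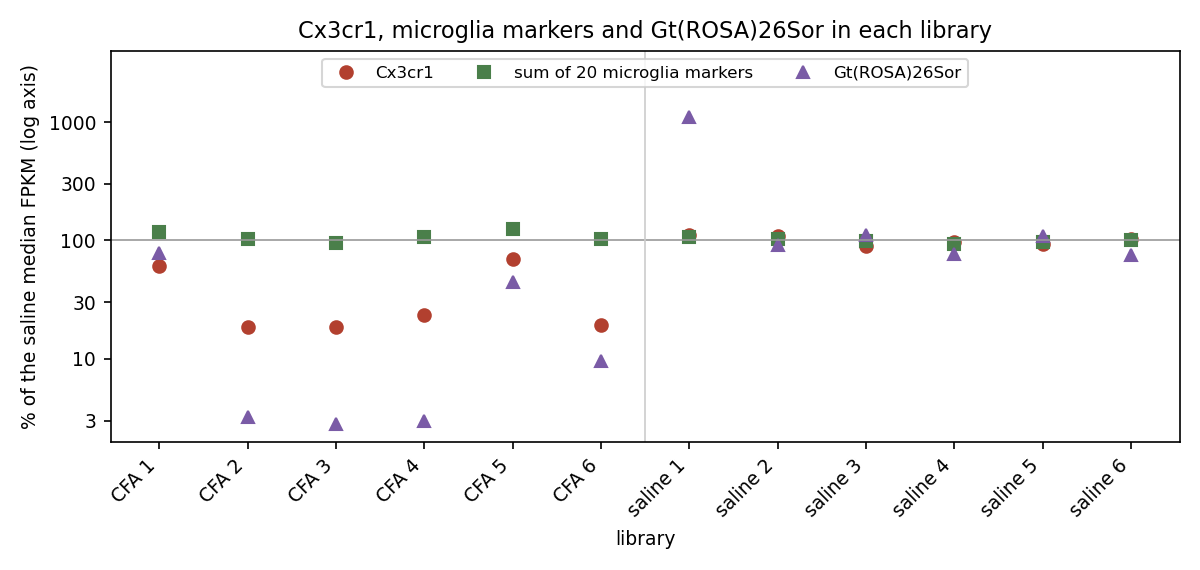
Level in each library as a percentage of the saline median FPKM, on a log axis, for Cx3cr1 (circles), the sum of 20 microglia markers (squares) and Gt(ROSA)26Sor (triangles), with CFA libraries on the left. Microglia markers stay between 94.1% and 124% in the 12 libraries, while Cx3cr1 is at 18.6% to 69.9% in CFA libraries, and Gt(ROSA)26Sor is low in the 4 libraries where Cx3cr1 is lowest.

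Genes beside Cx3cr1 on chromosome 9 were measured to see how far the low values reach. Of 24 other genes whose lowest coordinate lies within 300 kb of that of Cx3cr1, 8 were tested. As Cx3cr1 is on the minus strand, its lowest coordinate is the end of the gene and not its start. Relative to that of its coding sequence, the lowest coordinates of these genes ran from -443 to 142 kb. Of these, 0 passed by limma over all tested genes (0 at an unadjusted p under 0.05, 0 by voom), and all 8 log2 differences were positive, 0.00905 to 0.23. Slc25a38, a mitochondrial glycine carrier gene, had 9.45 ± 0.672 FPKM in CFA libraries and 9.31 ± 0.479 FPKM in saline libraries (SD, n = 6 each; limma adjusted p = 0.959). Gorasp1, which encodes a Golgi stacking protein, had 8.48 ± 0.468 FPKM in CFA libraries and 8.08 ± 0.323 FPKM in saline libraries (adjusted p = 0.779). The ribosomal protein gene Rpsa (0.01), the deubiquitinase cofactor gene Wdr48 (0.02), Ttc21a (0.08), Csrnp1 (0.20), the myelin gene Mobp (0.23) and Gm37111 (0.13) made up the others. Gorasp1, Ttc21a and Csrnp1 lie within the annotated span of Cx3cr1, and Wdr48 overlaps its end, because 1 transcript has a last exon of 12 bases far from the others. Gorasp1, Ttc21a and Csrnp1 lie between exons of Cx3cr1 and share none of its exon bases, and Wdr48 can share at most those 12 bases. Whether counting used strand is not given, so reads over exon bases shared with another gene cannot be told apart. Ccr8, another chemokine receptor gene in this stretch, was listed at 0 in all 12 libraries.

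**Figure D3:**
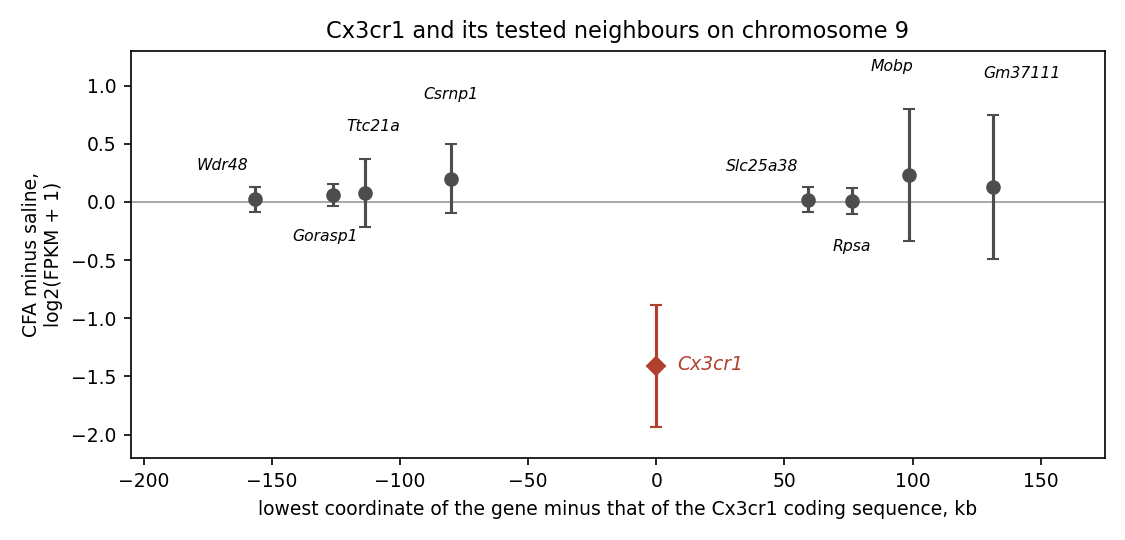
Log2 differences (CFA minus saline, pseudocount 1), with 95% intervals from limma, for Cx3cr1 (diamond) and the 8 tested genes near it, by position relative to the Cx3cr1 coding sequence in kb. Cx3cr1 lies at -1.41, and the intervals of the 8 neighbours all include 0.

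Both shedding proteases were expressed at levels that hardly differed. Adam10 (ENSMUSG00000054693, chromosome 9, 70678997 to 70780229, plus strand) encodes the protease of constitutive shedding, which also cuts the amyloid precursor protein and Notch. It had 25.3, 28.3, 27.6, 22.7, 26.1 and 23.6 FPKM in CFA 1 to CFA 6, against 24.96, 25.4, 23.8, 23.6, 27.0 and 24.1 FPKM in saline 1 to saline 6. CFA 2 and CFA 3 lay above the saline range and CFA 4 below it. The log2 difference was 0.04 (SE 0.06, 95% interval -0.08 to 0.16), on 3894 to 5164 recovered reads per library.

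Adam17 (ENSMUSG00000052593, chromosome 12, 21323509 to 21373632, minus strand), the protease of stimulated shedding, was scarcer. It had 2.72, 3.43, 3.305, 3.19, 3.62 and 3.07 FPKM in CFA 1 to CFA 6, against 2.88, 3.29, 3.45, 3.38, 3.42 and 3.64 FPKM in saline 1 to saline 6. Only CFA 1 lay outside the saline range, below it. The log2 difference was -0.04 (SE 0.06, 95% interval -0.17 to 0.09), on 748 to 1018 recovered reads. Since FPKM is per length, levels of the 4 genes can be set side by side: Adam10 was 7.11 to 9.28 times as high as Adam17 in CFA libraries and 6.62 to 8.66 times in saline libraries. Cx3cl1 was 20.9 to 91.2 times as high as Cx3cr1 in CFA libraries and 15.5 to 17.8 times in saline libraries. Thus the order Cx3cl1, Adam10, Cx3cr1, Adam17 held in all 6 saline libraries, whereas Adam17 lay above Cx3cr1 in CFA 2, CFA 3, CFA 4 and CFA 6. Protease RNA does not measure enzyme activity, and soluble fractalkine was not measured.

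Within groups the 4 genes varied mostly apart from each other. The correlation of their deviations from the group means on the log2(FPKM + 1) scale, over the 12 libraries, was -0.66 for Cx3cl1 and Adam17 and between -0.22 and 0.22 for the other 5 pairs. It is given as a description of 12 libraries that share a common scaling. By the same measure, the genes most like Cx3cr1 among all tested genes were the chemokine gene Ccl17 (0.95), the sphingosine 1-phosphate receptor gene S1pr1 (0.94), Ube2f (0.90), Krt10 (0.89) and Nudt3 (0.88). Ccl17 had 5.58 FPKM in CFA 1 and 4.55 FPKM in CFA 5, and 0.716 to 1.66 FPKM in the other 10 libraries, so its likeness rests on these 2 libraries. Its CFA group was split in the same way as that of Cx3cr1, but the low CFA libraries lay near the saline level. CFA 1 and CFA 5 were also the highest CFA libraries for S1pr1 (64.1 and 62.0 FPKM), Ube2f, Krt10 and Nudt3, so those likenesses lean on them as well. Most like Cx3cl1 were Dact2 (0.96), the neuronal adhesion gene Icam5 (0.92), Tsc22d1 (0.91), Palm (0.90) and Pak6 (0.89). Most like Adam10 were Samd8 (0.95), Wwp1 (0.95), Thap12 (0.94), Zfp780b (0.93) and Sec14l1 (0.92). Most like Adam17 were Trim36 (0.93), Ebp (0.91), Faf2 (0.90), Enpp6 (0.89) and Scamp2 (0.89).

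The wider fractalkine pathway was described with 9 lists holding 127 gene symbols, of which 126 were found and 66 were tested. The lists were drawn up with earlier results of these data known, so their shares are a description and no sign of enrichment. By limma over all tested genes 1 was called higher in CFA and 0 lower, which is 1.52% of the 66, against 0.03% of all tested genes. At an unadjusted p under 0.05 there were 6, 4 higher and 2 lower, or 9.09% against 7.67% of all tested genes. The median log2 difference of the 66 was -0.01, with 30 positive and 36 negative.

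The gene called higher was Ctss, which encodes cathepsin S, a lysosomal protease. Microglia release it, and it cuts fractalkine from spinal neurons in models of nerve injury. It had 29.4, 29.9, 33.2, 34.4, 36.5 and 34.0 FPKM in CFA 1 to CFA 6, against 24.5, 24.5, 24.6, 22.8, 24.4 and 19.5 FPKM in saline 1 to saline 6. In Ctss all CFA libraries lay above all saline libraries (log2 difference 0.48, SE 0.07, limma adjusted p = 0.0304). Ctss was thus higher in CFA libraries with little Cx3cr1 and in those with more. Whether genotype has a part in this difference was not tested. The call was lost without CFA 3 (adjusted p = 0.0596), CFA 4 (0.0507), CFA 6 (0.0916), saline 1 (0.0502), saline 2 (0.0743), saline 4 (0.0945) or saline 5 (0.0565), with Xist as a covariate (0.259), with no filter (0.0836), with no variance trend (0.0530), with the replicate block (0.130) and without both saline 3 and saline 5 (0.0540), while the log2 difference stayed between 0.43 and 0.53 under every setting tried. Mmp2, a matrix protease also reported to cut fractalkine, had 1.29 ± 0.214 FPKM in CFA libraries and 1.21 ± 0.230 FPKM in saline libraries (SD, n = 6 each; limma adjusted p = 0.941).

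Genes that bring the shedding proteases to maturity did not pass. Of 6 tested partners of ADAM17, 3 were positive and 3 negative, with a median of -0.000697. The proprotein convertase gene Pcsk7 had 4.06 ± 0.179 FPKM in CFA libraries and 3.72 ± 0.221 FPKM in saline libraries (SD, n = 6 each; limma adjusted p = 0.645). The convertase genes Furin (-0.08) and Pcsk6 (0.07) followed. The median of 5 tested tetraspanins that escort ADAM10 (the TspanC8 group) was -0.08, with 4 negative, led by Tspan17 (-0.17, limma adjusted p = 0.719), Tspan5 (-0.08) and Tspan33 (-0.10). Metalloprotease inhibitors had 1 positive and 3 negative of 4 tested, Reck at 0.11, Timp2 at -0.08 and Timp4 at -0.06. Among 6 other ADAM genes tested the values ran from -0.06 to 0.08, with Adam15 at 0.08, and the catalytically inactive Adam11 at -0.06 and Adam22 at -0.04. None of these 4 lists had a member past the limma threshold, with 1 gene, Pcsk7, at an unadjusted p under 0.05 and 0 called by voom.

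Substrates and signalling partners showed small values as well. Of 15 tested substrates of ADAM10 and ADAM17, 7 were positive and 8 negative (median -0.02). Mertk, a receptor for dying cells whose ectodomain ADAM17 releases, had 13.9 ± 0.566 FPKM in CFA libraries and 12.3 ± 1.27 FPKM in saline libraries (SD, n = 6 each; log2 difference 0.16, limma adjusted p = 0.530). Tgfa (0.19) and Tnfrsf1a (-0.08) followed. Of 19 tested genes of Gi-coupled receptor signalling, 7 were positive and 12 negative (median -0.02), led by Rgs10, a brake on Gi signalling that microglia express (-0.17, limma adjusted p = 0.650), Gng5 (-0.14) and Akt1 (-0.07). As TPM the medians of both lists turned positive, at 0.02 each, as did those of the ADAM17 partners and of the other ADAM genes, at 0.04 each; the median over all tested genes was then 0.03. In these 2 lists 0 genes passed by limma (2 at an unadjusted p under 0.05, 0 by voom).

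Other chemokines and their receptors were mostly near the floor of detection. Of 21 other chemokine receptor genes, 4 were tested, and 17 stayed below 1 FPKM in every library. Cmklr1, the chemerin receptor, had 1.37 ± 0.261 FPKM in CFA libraries and 0.950 ± 0.181 FPKM in saline libraries (SD, n = 6 each; log2 difference 0.28, limma adjusted p = 0.399), and Cxcr4 (0.15) and Ackr1 (-0.09) followed. Of 29 other chemokine ligand genes, 6 were tested. Cxcl14, a chemokine made by neurons, had 105 ± 8.52 FPKM in CFA libraries and 128 ± 9.64 FPKM in saline libraries (SD, n = 6 each; log2 difference -0.28, limma adjusted p = 0.206). Ccl27a (0.17), which has near-identical copies, and Ccl17 (0.33) were the next by p. Over both lists 0 genes passed by limma (2 at an unadjusted p under 0.05, 0 by voom).

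**Figure D4:**
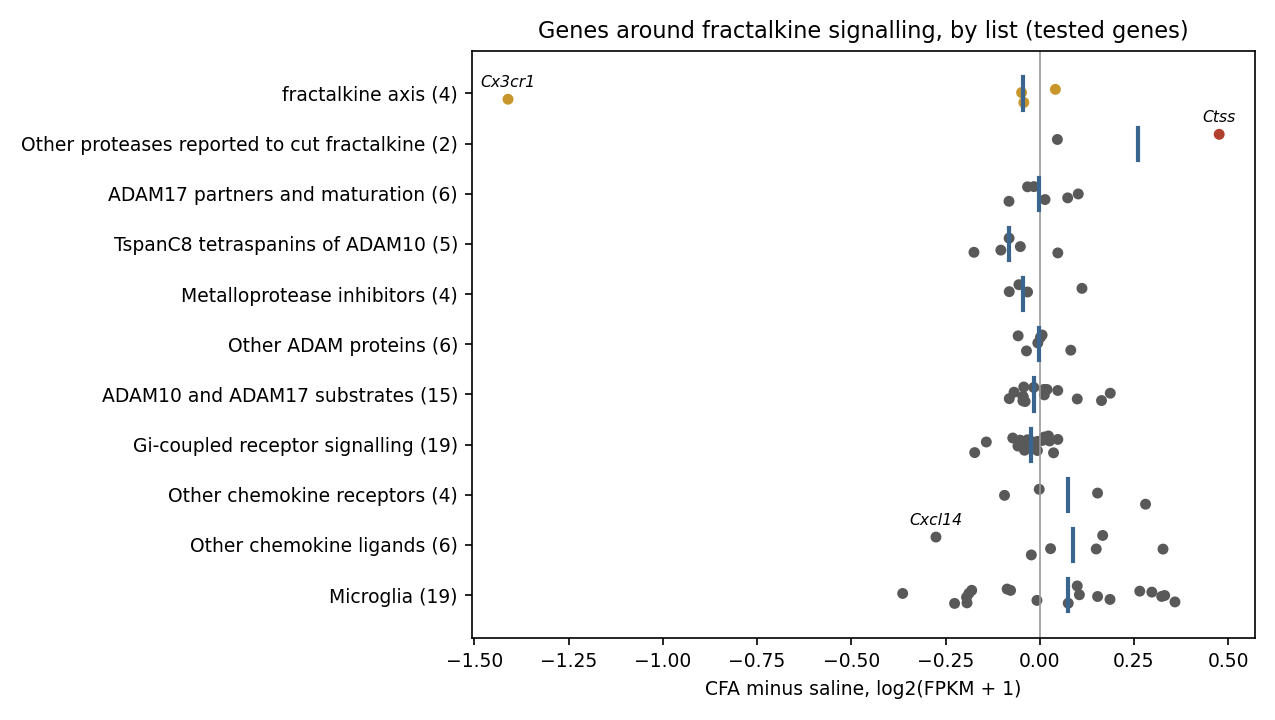
Log2 differences (CFA minus saline, pseudocount 1) for every tested gene of each list (number of genes in brackets); each dot is a gene, blue bars are list medians, and the red dot is past the limma threshold. The fractalkine genes (ochre) are shown without a test, and the bottom row holds the microglia markers. Cx3cr1 at -1.41 and Ctss at 0.48 lie at the ends, and the other pathway genes lie between -0.28 and 0.33.

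Libraries also differed in ways that touch these values. Recovered depth was 35.5 to 39.2 M reads per library in CFA and 33.6 to 38.4 M reads in saline. Xist was above 1 FPKM in 5 CFA and 2 saline libraries and the Y-linked Ddx3y in 1 CFA and 4 saline libraries, and the labels give no sex. With Xist as a covariate the Cx3cr1 difference was -1.57. In CFA 3, the CFA library with Ddx3y, Cx3cr1 was 1.70 FPKM, and in saline 2 and saline 5, the saline libraries with Xist, it was 9.86 and 8.48 FPKM. The choroid plexus transcript Ttr was 2259 FPKM in saline 3 and 701 FPKM in saline 5, and without both of these libraries the Cx3cr1 difference was -1.47. Markers of lateral septum neurons summed to 556 to 739 FPKM in CFA libraries and 641 to 755 FPKM in saline libraries, and all 10 were detected and had negative log2 differences (median -0.13). Those of striatal projection neurons, from a neighbouring region, summed to 130 to 490 FPKM in CFA libraries and 135 to 262 FPKM in saline libraries, with all 10 positive (median 0.48). Erythroid genes summed to 78.9 to 668 FPKM in CFA libraries and 157 to 333 FPKM in saline libraries, with all 5 positive (median 0.73). By limma and by voom 0 genes of these 3 lists passed over all tested genes (0, 1 and 1 at an unadjusted p under 0.05 by limma). Their part in the differences was not tested.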

How the data were processed

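RNA of the mouse lateral septum was sequenced in 12 libraries. Per the labels' protocols, RNA was taken up in Trizol, 0.2 µg entered each library, and paired reads of 150 bases were made. Per the submitters' processing notes, HISAT2 2.0.5 and build mm10 were used; how reads were counted, whether by strand and on which annotation, is not given in the sources used here. FPKM, deposited by the authors, are values per gene and library, with gene lengths. FPKM times length came in whole multiples of 1 read, and reads were recovered from it (100% of values within 0.01 of a whole read); no count model gave a main result. A further 6 columns, in another table, matched no sample and were not used.

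Groups came from the labels. Genes with at least 1 FPKM in at least 6 libraries were tested with limma 3.58.1 (R 4.3.3) on log2(FPKM + 1), eBayes with a trend, two-sided, Benjamini-Hochberg over 13345 genes, threshold 0.05. Differences are CFA minus saline; this scale understates changes of low genes. The 4 members and all lists were chosen with earlier results of these data known. Named were the members, pathway genes past the threshold, up to 3 genes per pathway list with the smallest p, neighbours within 300 kb, the 5 tested genes most like each member (predicted genes and Rik symbols passed over), and Xist, Ddx3y, Ttr and Gt(ROSA)26Sor; marker genes with values and Ccr8 were named after their values were seen. Symbols with several IDs were read from the ID with the highest mean. Alternatives were TPM, median ratio scaling, another pseudocount, filter or variance model, voom on recovered reads, covariates, a replicate block and libraries left out. The fit was tested on simulated data. Promoters came from the RefSeq table, where all 4 symbols matched. Chi-square per degree of freedom was 7.22 for the closest pair of libraries, and none was treated as a repeat. Figures used Python 3.11.15 and matplotlib 3.10.9.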

Additional observations from a re-analysis of the deposited data

Results flagged for a closer look

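Among 8 genes looked at library by library, in 16 groups of 6 libraries, 3 values stood far from the other libraries of their group. Chance alone gives about 1 in 20 groups for genes taken without regard to their values. These genes were chosen with earlier results of these data known, Gt(ROSA)26Sor and Ttr because they separate libraries. The count can therefore not be read against that rate. Gt(ROSA)26Sor was 49.0 FPKM in saline 1. Ctss was 19.5 FPKM in saline 6, below the other saline libraries; without saline 6 the log2 difference of Ctss was 0.43 (limma adjusted p = 0.0404). Ttr was 2259 FPKM in saline 3. Among the 4 fractalkine genes there was 0 such value, since CFA 1 and CFA 5 both lay apart from the other CFA libraries in Cx3cr1.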

How the results depend on the processing

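The 4 fractalkine genes kept the sign of their difference under all 23 settings tried, 12 of which left out 1 library. The filter, the variance trend and the replicate block leave the difference itself unchanged by construction, so those settings could not alter a sign. No shift exceeded the spread between libraries, but leaving out 1 library of 6 could not exceed it. For Cx3cr1 that spread (pooled SD 0.48) also holds the different levels among CFA libraries. Cx3cr1 ranged from -1.73 (voom) to -1.41 (median ratio scaling) in the other settings, and from -1.60 to -1.31 with 1 library left out. With 1 library left out, Cx3cl1 ranged from -0.08 to -0.02, Adam10 from 0.01 to 0.07 and Adam17 from -0.07 to -0.01. Adam17 had no value with the filter at 5 FPKM. The count of called genes, 4, was 1 with the Xist covariate, 14 with the microglia covariate, 2 without a filter, 2 without a variance trend and 1 with the replicate number as a block, and 1 to 11 with 1 library left out. It was 10 without CFA 1, 1 without CFA 6, 2 without saline 2, 11 without saline 3, 2 without saline 4 and 1 without saline 5. The split was 3 higher and 1 lower as TPM and 2 higher and 1 lower with median ratio scaling. Of the pathway lists 1 gene, Ctss, was called, and 0 with the Xist covariate, without a filter, without a variance trend, with the block (adjusted p = 0.130) and without saline 3 and saline 5, and 0 to 1 with 1 library left out. The cause was not tested. The labels do not say whether same-numbered libraries belong together. The correlation of their deviations was -0.0118 to 0.159 over 6 pairs. Among the 6 saline libraries, 3 of 6 CFA libraries matched their own number best. A pairing can therefore not be set aside, and if it holds the counts with the block apply. With 1 CFA and 1 saline library per number, the block cannot change the differences of the 4 genes, only their SE. Depth limits Adam17 and the low CFA values of Cx3cr1 most, at 748 and 281 reads or more.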
